A study of Mus musculus with 18 samples.

Results

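Wnt2, Wnt2b, Wnt3, Wnt3a, Wnt4, Wnt5a, Wnt5b, Wnt6, Wnt8a and Wnt11 are the 10 Wnt ligand genes described here, out of 24498 genes in the deposited table. They were taken as a list of gene symbols with no threshold on their values, though earlier results of these data were known. All 10 passed the filter on low values. The mouse genome holds 9 more Wnt ligand genes, and these are used only to set the 10 in place. Mouse embryos were taken at day 7.5 of gestation, when gastrulation is under way, and 18 RNA-seq libraries were made from their sorted cells, 3 biological replicates for each of 6 groups. All embryos carried, on both alleles, a knock-in of FoxA2, a forkhead factor known for its roles in the node, the notochord and endoderm, joined to the red fluorescent protein tagRFP. In ΔHx embryos the fused protein lacked 10 amino acids of an α-helix that the series describes as critical for activating targets, and in WT embryos the fused protein was intact. Cells of each genotype were sorted by red fluorescence into High (above the signal of heterozygous cells), Mid (above autofluorescence, up to the heterozygous maximum) and Neg (no signal) gates. The groups were therefore ΔHx High, WT High, ΔHx Mid, WT Mid, ΔHx Neg and WT Neg. About 10 embryos were pooled for each sort, from superovulated dams of 3 to 5 weeks on a mixed C57Bl6/J and CD-1 background. Embryos were not sexed, their extra-embryonic portion had been removed, and wild-type and heterozygous embryos served only to place the gates.

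Wnt proteins are secreted, lipid-modified ligands that bind Frizzled receptors on nearby cells. With the coreceptors Lrp5 and Lrp6 they stabilise β-catenin, which joins TCF/LEF factors at target genes, and with Ror and Ryk receptors they act without β-catenin on cell polarity and movement. In the gastrulating mouse embryo, Wnt3 is needed to form the primitive streak, Wnt3a to make paraxial mesoderm and extend the axis, and Wnt5a to grow the body's posterior end.

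Depth per library was 12302196 to 17194136 reads assigned to genes, with 15649 to 17917 genes detected. Values are normalised read counts per library, and changes are differences of log2(value + 1), which understate those of low genes. A change was called at an adjusted p under 0.05 in limma, fitted to all 6 groups and adjusted by Benjamini-Hochberg over 14711 tested genes. Foxa2 itself averaged 2104 ± 269 in ΔHx High and 1927 ± 490.1 in WT High cells, 796 ± 377 in ΔHx Mid and 768 ± 131 in WT Mid cells, and 53.6 ± 9.65 in ΔHx Neg and 28.2 ± 10.9 in WT Neg cells (SD, n = 3 each). Its ΔHx over WT change was 0.15 in High (adjusted p = 0.927), -0.03 in Mid (adjusted p = 0.996) and 0.95 in Neg cells (adjusted p = 0.405). Gene counts cannot show the small deletion, so they check the gates and not the genotype. The summed level of 6 node and notochord markers ran from 13776 to 21076 over all High libraries. In Neg libraries it ran from 183 to 416 in ΔHx and from 89.7 to 267 in WT. That of 8 visceral endoderm markers ran from 36517 to 45312 over the Mid libraries. Of the 6 node markers, Shh was called higher in ΔHx than in WT Neg cells (4.31, adjusted p = 0.00323). It had 41, 58 and 20 reads in the ΔHx Neg libraries against 5, 0 and 0 in the WT Neg libraries. The others were not called between these groups, and the part of these markers in the ligand changes was not tested. A pair of libraries stood apart. WT Mid replicate 1 had a sum of 8 parietal endoderm markers of 226747, against 38039 and 61274 in the other WT Mid libraries, and ΔHx High replicate 3 had the lowest number of detected genes. In RNA of sorted cell pools, fewer cells of a type and less RNA per cell cannot be told apart.

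The 10 ligands differed in level and in make-up between gates. Per kilobase of exon, a scale used here to set genes side by side, their summed level was 322 ± 36.1 in ΔHx High and 301 ± 40.2 in WT High cells, 675 ± 64.2 in ΔHx Mid and 575 ± 128 in WT Mid cells, and 1117 ± 120.2 in ΔHx Neg and 1025 ± 159.5 in WT Neg cells (normalised counts per kb, SD, n = 3 each). Exon length here merges all annotated exons of a gene, and which isoforms were expressed was not checked. The High libraries had the lowest sums and the Neg libraries the highest, with no overlap between gates. Over all 19 Wnt ligands, these 10 held 89.3% to 98.0% of the summed level per kb in a library. Wnt8a, a ligand of the primitive streak that acts through β-catenin, had the highest level per kb of all 19 in both Neg groups (428 ± 40.9 in ΔHx and 382 ± 63.0 in WT) and in both Mid groups (227 ± 21.0 in ΔHx and 167 ± 69.6 in WT). This first place rests on the length scale, since Wnt5a, with 7.82 kb of exon against 1.75 kb, had the higher mean count in these groups. In Neg cells the counts were 906 for Wnt5a against 747 for Wnt8a in ΔHx, and 844 against 667 in WT. In High cells the leading ligand was Wnt5b, the close relative of Wnt5a, at 134 ± 23.9 in ΔHx and 141 ± 6.93 in WT cells. By mean, Wnt3a came next in all groups but WT Mid, where Wnt5b stood between Wnt8a and Wnt3a. The means of Wnt5b and Wnt3a were within their spread in WT Mid (97.1 ± 63.5 and 93.2 ± 20.7) and in WT Neg cells (157 ± 29.3 and 159 ± 51.9).

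As a share of the 10 ligands' summed level per kb, Wnt5b made up 41.6% ± 2.94 in ΔHx High and 47.3% ± 4.41 in WT High cells, against 12.9% ± 0.455 in ΔHx Neg and 15.3% ± 1.24 in WT Neg cells. Wnt8a made up 7.56% ± 2.51 in ΔHx High and 4.63% ± 1.52 in WT High cells, against 38.5% ± 3.71 in ΔHx Neg and 37.3% ± 2.03 in WT Neg cells. The shares of both ligands in High and in Neg libraries did not overlap. Wnt11 held 7.33% ± 1.03 in ΔHx High and 10.7% ± 0.683 in WT High cells and less in Neg cells, with 1.05% ± 0.0834 in ΔHx and 0.923% ± 0.561 in WT. Mean shares of Wnt3a lay closer together, from 21.2% in ΔHx High to 15.3% in WT Neg cells.

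**Figure D1:**
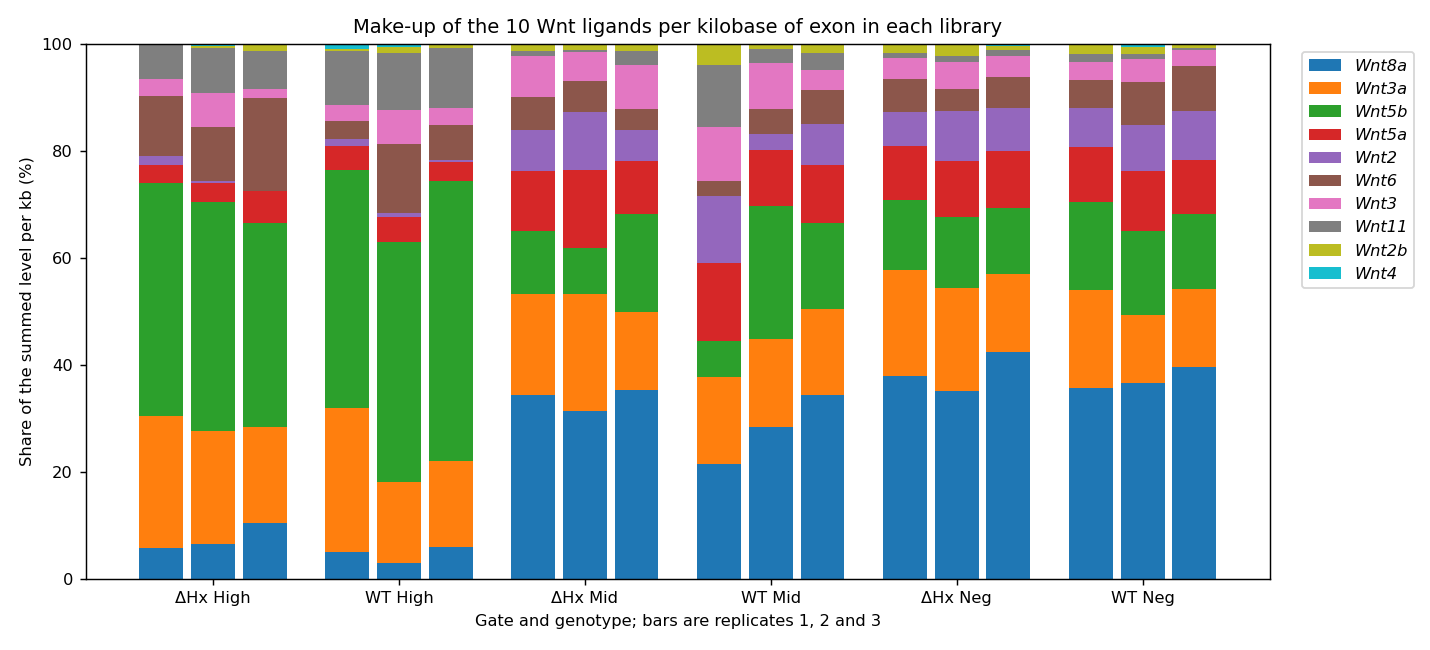
Share (%) of the summed level per kilobase of exon that each of the 10 Wnt ligands held, 1 stacked bar per library, with ΔHx left of WT in each gate. Wnt5b took 38.2% to 52.4% in the High libraries and Wnt8a 35.0% to 42.4% in the Neg libraries; WT Mid replicate 1 differs from the other Mid libraries by a small Wnt5b and a large Wnt11 share.

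The start-site windows of 3 ligands are shown. In the gate pattern described next, Wnt11 and Wnt5b were not called lower in High than in Neg cells of either genotype, and Wnt2 had the largest fall. Wnt4 was not called lower either, and its window, not shown, holds none of the motifs searched. Wnt11 and Wnt5b have more than 1 window each, and only the one shown holds a TCF/LEF motif. This display therefore cannot show whether motif and gate pattern go together. Each window runs from 250 bases before to 50 bases after a RefSeq start site (GRCm38.p6, the build of mm10), written 5′ to 3′ on the gene's strand, with a TCF/LEF motif in capitals where there is one.
Wnt11, chr7:98834862-98835161, plus strand: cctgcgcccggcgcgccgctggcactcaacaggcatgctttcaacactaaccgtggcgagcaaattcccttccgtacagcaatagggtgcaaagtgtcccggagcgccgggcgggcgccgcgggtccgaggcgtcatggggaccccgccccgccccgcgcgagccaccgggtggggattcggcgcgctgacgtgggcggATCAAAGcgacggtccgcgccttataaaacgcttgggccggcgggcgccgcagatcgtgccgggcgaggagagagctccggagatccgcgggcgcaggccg
Wnt5b, chr6:119449337-119449636, minus strand: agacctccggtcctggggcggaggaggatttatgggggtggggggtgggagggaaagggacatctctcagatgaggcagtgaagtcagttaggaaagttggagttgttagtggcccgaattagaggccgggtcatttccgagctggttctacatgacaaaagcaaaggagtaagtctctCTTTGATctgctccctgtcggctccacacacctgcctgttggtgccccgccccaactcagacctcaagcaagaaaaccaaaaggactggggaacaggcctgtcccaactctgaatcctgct
Wnt2, chr6:18030396-18030695, minus strand: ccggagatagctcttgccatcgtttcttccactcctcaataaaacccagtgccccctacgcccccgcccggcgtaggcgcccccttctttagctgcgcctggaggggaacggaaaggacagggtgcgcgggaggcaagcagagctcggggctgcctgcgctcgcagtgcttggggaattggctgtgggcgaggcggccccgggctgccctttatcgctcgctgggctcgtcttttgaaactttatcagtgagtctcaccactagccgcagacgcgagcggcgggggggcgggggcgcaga
RefSeq windows of 8 of the 10 ligands were searched, 11 windows in all. No window was found for Wnt5a, and Wnt8a was left out of the search. The motif counts given here therefore do not cover Wnt5a and Wnt8a. TCF/LEF factors carry the β-catenin signal, and their motif was searched as CTTTGAA and CTTTGAT on both strands. One of these stood in 2 of the 11 windows, against 8.65% of 32851 windows of all genes. The match in Wnt11 begins 51 bases before the start site and that in the most downstream of 3 Wnt5b windows 71 bases before it. Forkhead motifs, the kind of site FoxA2 binds, were searched as TGTTTAC (in 3.65% of all windows), as TGTTTGC (in 5.07%) and as TATTTAC (in 3.04%), and were in 0 of the 11 ligand windows, against 11.2% of all windows for any of them. The T-box motif AGGTGTGA was likewise in 0, against 1.28%. The Wnt2 window holds none of the motifs searched. G and C made up 71.3% of the Wnt11 window, 55.0% of the Wnt5b window and 65.7% of the Wnt2 window, against a median of 52.7% over all windows.

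The first question is how the ligands were distributed between cells with much FoxA2 and cells with none. Most were lower in High than in Neg cells of both genotypes, with Wnt2 and Wnt8a furthest apart. In ΔHx embryos 6 of the 10 ligands were lower and 0 higher, and in WT embryos 7 were lower and 1, Wnt11, was higher. The background is wide, since 42.6% of tested genes were called in ΔHx (21.1% lower and 21.5% higher) and 44.4% in WT (21.8% lower and 22.6% higher). The libraries of the gates did not overlap for 7 ligands in ΔHx and 8 in WT, against 54.7% of tested genes in ΔHx and 54.7% in WT. The median change of the 10 ligands was -1.86 in ΔHx and -1.72 in WT cells on the log2 scale, against 0.01 and 0.02 over all tested genes. Markers of other cell types differed in this comparison. The sum of 6 blood and endothelial markers was 252 to 485 in ΔHx High against 1951 to 2703 in ΔHx Neg libraries, and 299 to 399 in WT High against 1416 to 2852 in WT Neg libraries. Of these 6 markers 5 were lower in each genotype and 1, the erythroid factor Gata1, was higher (1.28, adjusted p = 0.035 in ΔHx and 1.96, adjusted p = 0.00226 in WT). The sum of 6 lateral and extra-embryonic mesoderm markers was 197 to 231 in ΔHx High against 2695 to 2721 in ΔHx Neg libraries, and 188 to 263 in WT High against 2594 to 3197 in WT Neg libraries, with 6 of 6 lower in each genotype. The sum of 6 epiblast markers was 7799 to 9515 in ΔHx High against 19522 to 22792 in ΔHx Neg libraries, and 7536 to 9734 in WT High against 17739 to 20976 in WT Neg libraries. In each genotype 4 of these were lower, among them Dnmt3b, a DNA methyltransferase that made up most of the Neg sum (-1.95 in ΔHx and -1.82 in WT), and 2 were higher, Fgf5 (1.65 and 2.42) and Otx2 (1.18 and 1.41). Of the 18 markers 1, the globin gene Hba-x, was at 0 in both High groups and none was in either Neg group. Their part in the ligand changes was not tested.

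Among the ligands that act mainly through β-catenin, Wnt8a lies on chromosome 18, 34542313 to 34548273, plus strand (mm10), a gene of 6 exons. Wnt8a read 35.1, 38.0 and 51.1 in the ΔHx High libraries, 438, 378 and 372 in ΔHx Mid and 822, 679 and 740.2 in ΔHx Neg. It read 28.8, 16.4 and 26.6 in the WT High libraries, 162, 309 and 403 in WT Mid and 719, 540.4 and 741 in WT Neg. High libraries lay far below both other gates, and Mid libraries below Neg ones, in either genotype. Wnt8a averaged 41.4 ± 8.54 in ΔHx High and 747 ± 71.4 in ΔHx Neg cells (log2 change -4.15, SE 0.27, adjusted p = 8.43e-10), and 23.9 ± 6.61 in WT High and 667 ± 110.1 in WT Neg cells (log2 change -4.77, SE 0.27, adjusted p = 1.22e-10).

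Wnt3a, the ligand of paraxial mesoderm, lies on chromosome 11, 59248033 to 59290752, minus strand. Wnt3a read 239, 195 and 139 in the ΔHx High libraries, 381, 417 and 245 in ΔHx Mid and 679.8, 595 and 403 in ΔHx Neg. It read 247, 131 and 113 in the WT High libraries, 192, 282 and 298 in WT Mid and 586, 300.1 and 433 in WT Neg. The High libraries were lower than the Neg libraries without overlap in both genotypes, but by less than Wnt8a: the log2 change was -1.55 in ΔHx (SE 0.31, adjusted p = 0.000464) and -1.45 in WT (SE 0.31, adjusted p = 0.000783). The mean of Mid cells stood between those of the other gates, and the Mid over Neg change was not called in either genotype (-0.69, adjusted p = 0.0938 in ΔHx and -0.74, adjusted p = 0.0716 in WT). It passed in 1 of 16 alternative fits in ΔHx (adjusted p = 0.0316 to 0.339 over these fits) and in 4 of 17 in WT (adjusted p = 0.0343 to 0.278 over these fits).

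Wnt3, the ligand needed for the primitive streak, lies on chromosome 11, 103774150 to 103817957, plus strand. Wnt3 read 34.2, 65.2 and 14.0 in the ΔHx High libraries, 168, 115 and 153 in ΔHx Mid and 146, 178 and 119.8 in ΔHx Neg. It read 30.0, 62.8 and 23.9 in the WT High libraries, 133, 163 and 77.6 in WT Mid and 124, 115 and 98.7 in WT Neg. Only the High gate stood apart: its libraries lay below all Mid and Neg libraries, while Mid and Neg overlapped. Wnt3 was lower in High than in Neg cells (log2 change -2.17, SE 0.43, adjusted p = 0.000476 in ΔHx; log2 change -1.62, SE 0.43, adjusted p = 0.00486 in WT). The Mid over Neg change was -0.03 in ΔHx (95% interval -0.93 to 0.88) and 0.09 in WT (-0.82 to 0.99).

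Wnt2, which is expressed in extra-embryonic mesoderm and acts with Wnt2b in lung formation later, lies on chromosome 6, 17988940 to 18030585, minus strand. Wnt2 read 13.2, 2.72 and 0 in the ΔHx High libraries, 126, 168 and 78.7 in ΔHx Mid and 175, 233 and 179.6 in ΔHx Neg. It read 9.59, 4.55 and 1.77 in the WT High libraries, 122, 42.0 and 118 in WT Mid and 189.7, 164 and 220.1 in WT Neg. The High libraries were close to the floor, since 3 reads of a library are worth 2.47 to 4.11, and 1 ΔHx High library had no read. All Mid and Neg libraries lay above all High ones. Group means in High were 37.1-fold lower than in Neg cells in ΔHx (log2 change -5.70, SE 0.68, adjusted p = 1.7e-06) and 36.1-fold lower in WT (log2 change -5.13, SE 0.68, adjusted p = 5.57e-06), resting on 18 reads in the ΔHx High and 15 in the WT High libraries.

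Wnt2b, the partner of Wnt2 in lung formation, lies on chromosome 3, 104945272 to 104961921, minus strand. Wnt2b read 0.877, 5.43 and 14.0 in the ΔHx High libraries, 39.1, 35.1 and 35.3 in ΔHx Mid and 80.4, 99.8 and 33.0 in ΔHx Neg. It read 5.99, 14.6 and 4.43 in the WT High libraries, 68.5, 21.0 and 45.3 in WT Mid and 77.6, 48.7 and 27.2 in WT Neg. The High libraries were again the lowest of each genotype without overlap, and Mid and Neg libraries overlapped. The changes were -3.53 (SE 0.66, adjusted p = 0.000249) in ΔHx and -2.51 (SE 0.66, adjusted p = 0.00433) in WT.

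The ligands that act mainly without β-catenin split 3 ways. Wnt5a, a ligand of the Ror receptors, lies on chromosome 14, 28504750 to 28527448, plus strand, and 4.58% of its exon bases overlap an antisense gene, Gm2670, whose reads could not be told apart without strand. Wnt5a read 91.2, 90.6 and 132 in the ΔHx High libraries, 647, 789.8 and 469.8 in ΔHx Mid and 974, 912 and 832 in ΔHx Neg. It read 117, 115 and 70.9 in the WT High libraries, 492, 512 and 571 in WT Mid and 935, 743 and 853 in WT Neg. High libraries lay well below the rest, and Mid libraries below Neg ones, with no overlap in either genotype. High cells were lower than Neg cells by 8.66-fold in ΔHx (log2 change -3.12, SE 0.21, adjusted p = 8.7e-10) and by 8.35-fold in WT (log2 change -3.08, SE 0.21, adjusted p = 8.13e-10).

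Wnt5b, which resembles Wnt5a in sequence, lies on chromosome 6, 119432531 to 119544347, minus strand. Wnt5b read 403, 382 and 284 in the ΔHx High libraries, 225, 157 and 294 in ΔHx Mid and 429.7, 388 and 327 in ΔHx Neg. It read 392, 377 and 355 in the WT High libraries, 76.7, 409.8 and 287 in WT Mid and 503, 351 and 398 in WT Neg. High and Neg libraries overlapped in both genotypes, and no change was called. Its High over Neg change was -0.10 (95% interval -0.92 to 0.71) in ΔHx and -0.14 (-0.95 to 0.68) in WT. The WT Mid libraries spread widely, with replicate 1, the library rich in parietal endoderm markers, the lowest of all 18.

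Wnt11, which guides cell movements of gastrulation in zebrafish and acts with Wnt5a in axis extension in mouse, lies on chromosome 7, 98835112 to 98855195, plus strand. The opposite-strand pseudogene Gm8398 overlaps 8.80% of its exon bases, and 6.79% of the distinct 75-base stretches of its transcripts recur in that pseudogene. Wnt11 read 92.1, 117 and 83.3 in the ΔHx High libraries, 27.9, 9.75 and 61.6 in ΔHx Mid and 49.1, 48.5 and 46.5 in ΔHx Neg. It read 138, 138 and 121 in the WT High libraries, 207, 68.8 and 89.8 in WT Mid and 72.7, 29.4 and 18.1 in WT Neg. In both genotypes every High library was above every Neg library. The Wnt11 change was called in WT (log2 change 1.93, SE 0.53, adjusted p = 0.00609) and not in ΔHx (log2 change 0.99, SE 0.53, adjusted p = 0.144), and the difference of these changes was -0.94 (adjusted p = 0.998). With the ΔHx High and ΔHx Neg libraries fitted alone the ΔHx change passed as well (adjusted p = 0.0126).

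Wnt6, a ligand of surface ectoderm, lies on chromosome 1, 74771892 to 74785322, plus strand. Wnt6 read 85.1, 74.3 and 107 in the ΔHx High libraries, 100.5, 87.8 and 52.5 in ΔHx Mid and 172, 98.9 and 129 in ΔHx Neg. It read 25.2, 89.2 and 37.2 in the WT High libraries, 26.0, 64.0 and 92.4 in WT Mid and 128, 149 and 198 in WT Neg. In WT cells the High libraries lay below the Neg libraries, while in ΔHx cells the gates overlapped. The Wnt6 change was called in WT (log2 change -1.81, SE 0.44, adjusted p = 0.00251) and not in ΔHx (log2 change -0.56, SE 0.44, adjusted p = 0.327), and the difference between genotypes of this change did not pass the test (1.25, SE 0.62, adjusted p = 0.998). Wnt4, known for its part in kidney and ovary formation, lies on chromosome 4, 137277489 to 137299726, plus strand and was low throughout, with 4 to 33 reads per group of 3 libraries. Wnt4 read 2.63, 5.43 and 0.825 in the ΔHx High libraries, 3.72, 0 and 0 in ΔHx Mid and 7.81, 3.73 and 15.5 in ΔHx Neg. It read 13.2, 8.19 and 2.66 in the WT High libraries, 2.74, 2.87 and 1.74 in WT Mid and 9.85, 18.3 and 6.34 in WT Neg. Values of all gates were low, with 0 reads in 2 ΔHx Mid libraries, and High and Neg overlapped. The High over Neg change was -1.34 in ΔHx (95% interval -2.96 to 0.28) and -0.56 in WT (-2.18 to 1.06).

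**Figure D2:**
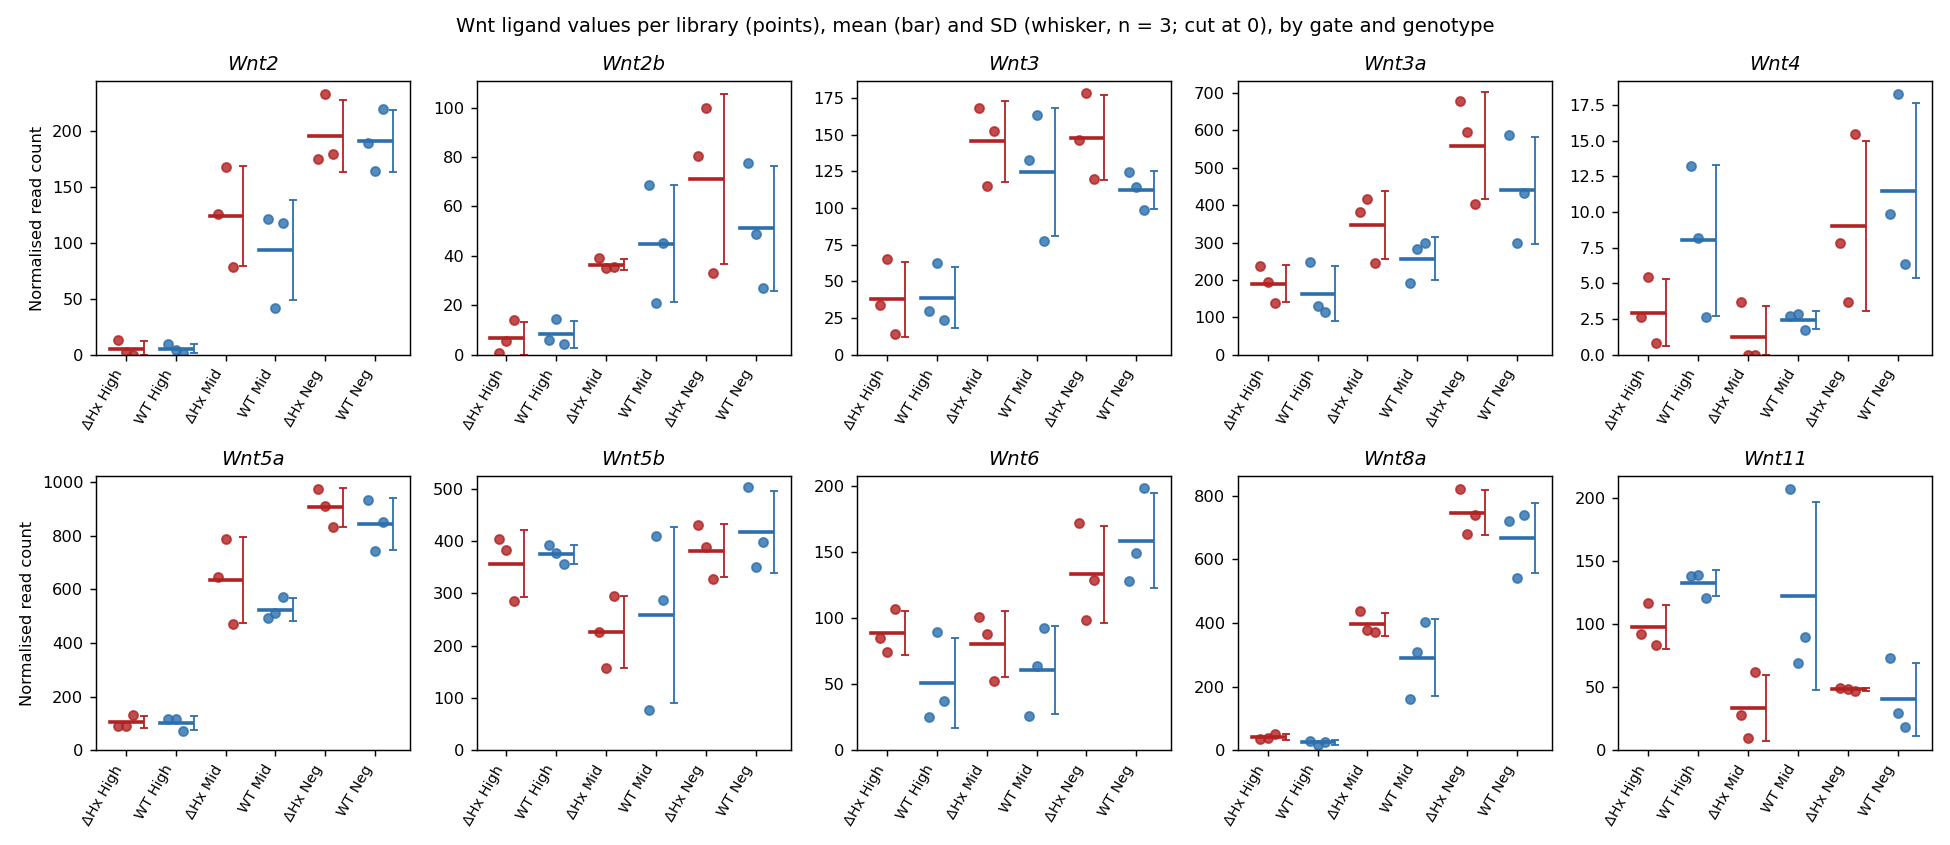
Normalised read count (y axis, linear from 0) of each Wnt ligand in each of the 18 libraries, by gate and genotype, with points for libraries, bars for means and whiskers for SD (n = 3, drawn down to 0 at most). Wnt8a and Wnt5a stand lowest in High and highest in Neg in both genotypes, Wnt5b has overlapping High and Neg libraries, and Wnt11 has its ΔHx Mid libraries (9.75 to 61.6) below its WT Mid libraries (68.8 to 207).

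Mid cells, which expressed visceral endoderm markers, shared only part of this pattern. Wnt8a and Wnt5a were lower in Mid than in Neg cells of both genotypes, by smaller amounts than in High. In ΔHx, 3 ligands were lower and 0 higher, against 34.3% of tested genes called (16.5% lower and 17.9% higher). In WT, 3 were lower and 1 higher, against 32.9% called (15.4% lower and 17.4% higher). The libraries of the gates did not overlap for 5 ligands in ΔHx and 6 in WT, against 50.6% and 44.6% of tested genes. This comparison shares its Neg libraries with that of High and Neg cells. The sum of 8 visceral endoderm markers was 39966 to 45312 in ΔHx Mid against 805 to 2085 in ΔHx Neg libraries, and 36517 to 44502 in WT Mid against 1392 to 1544 in WT Neg libraries, with 8 of 8 higher in each genotype. That of 6 lateral and extra-embryonic mesoderm markers was 247 to 277 in ΔHx Mid against 2695 to 2721 in ΔHx Neg libraries, and 173 to 285 in WT Mid against 2594 to 3197 in WT Neg libraries, with 6 of 6 lower in each genotype. That of 6 blood and endothelial markers was 282 to 311 in ΔHx Mid against 1951 to 2703 in ΔHx Neg libraries, and 239.7 to 279 in WT Mid against 1416 to 2852 in WT Neg libraries. Of these, 5 were lower in each genotype, and the globin gene Hbb-bh1 was at 0 in WT Mid cells. The 8 parietal endoderm markers, which summed to 15746 to 21522 in ΔHx Mid against 7269 to 7485 in ΔHx Neg libraries, and 38039 to 226747 in WT Mid against 7491 to 7924 in WT Neg libraries, were called higher for 5 of 8 in ΔHx and 8 of 8 in WT. The part of these markers in the ligand changes was not tested. Wnt8a changed by -0.91 (adjusted p = 0.0144) in ΔHx and -1.28 (adjusted p = 0.00141) in WT, and Wnt5a by -0.54 in ΔHx (adjusted p = 0.0487) and -0.68 in WT (adjusted p = 0.0156). Also lower in ΔHx was Wnt4 (-2.40, adjusted p = 0.0221), which rests on 4 reads in ΔHx Mid and 26 in ΔHx Neg, a ratio of 0.152 with an exact 95% counting interval of 0.0385 to 0.437. Its WT change was -1.76 and was not called. It had 7 reads in WT Mid and 33 in WT Neg, a ratio of 0.211 (counting interval 0.0786 to 0.484). In WT, Wnt6 was lower (-1.52, adjusted p = 0.0123) and Wnt11 higher, with overlapping libraries (1.65, adjusted p = 0.0221), and both calls were lost without WT Mid replicate 1 (Wnt6 -1.01, adjusted p = 0.0863; Wnt11 1.19, adjusted p = 0.126) and without WT Neg replicate 3 (adjusted p = 0.0578 for Wnt6 and 0.127 for Wnt11). Without ΔHx Neg replicate 1 none of the 3 ΔHx calls passed (adjusted p = 0.0563 for Wnt4, 0.142 for Wnt5a and 0.0572 for Wnt8a), and without ΔHx Neg replicate 3 only Wnt8a passed.

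High and Mid cells, which both contain FoxA2, also differed. The ligands Wnt2, Wnt2b, Wnt3, Wnt5a and Wnt8a were lower in High than in Mid cells of both genotypes. In ΔHx, 6 ligands were lower and 1 higher, against 25.6% of tested genes called (12.3% lower and 13.3% higher), and in WT 5 were lower and 0 higher, against 24.4% (12.4% lower and 12.1% higher). The libraries did not overlap for 7 ligands in ΔHx and 5 in WT, against 39.1% and 35.4% of tested genes. The gates differed in markers too: the sum of 6 node and notochord markers was 16129.9 to 17462 in ΔHx High against 1706 to 1865 in ΔHx Mid libraries, and 13776 to 21076 in WT High against 2151 to 2955 in WT Mid libraries, with 5 of 6 higher in ΔHx and 6 of 6 in WT. The sum of 8 visceral endoderm markers was 1475 to 4764 in ΔHx High against 39966 to 45312 in ΔHx Mid libraries, and 3012 to 7887 in WT High against 36517 to 44502 in WT Mid libraries, with 8 of 8 lower in each genotype. The sum of 6 nascent and paraxial mesoderm markers was 2729 to 4357 in ΔHx High against 6316 to 8543 in ΔHx Mid libraries, and 2041 to 2286 in WT High against 5589.7 to 6973 in WT Mid libraries, with 5 of 6 lower in each genotype. The sum of 8 parietal endoderm markers was 9773 to 11448 in ΔHx High against 15746 to 21522 in ΔHx Mid libraries, and 10318 to 13894 in WT High against 38039 to 226747 in WT Mid libraries, with 2 of 8 lower in ΔHx and 8 of 8 in WT. No marker of these lists was at 0 in these groups, and their part in the ligand changes was not tested. Wnt2 differed most, by -4.99 in ΔHx (adjusted p = 2.45e-05) and -3.97 in WT (adjusted p = 0.000257). Wnt8a differed by -3.24 in ΔHx (adjusted p = 1.11e-07) and -3.49 in WT (adjusted p = 6.88e-08), and Wnt5a by -2.58 in ΔHx (adjusted p = 5.71e-08) and -2.40 in WT (adjusted p = 1.77e-07). Wnt3 changed by -2.14 in ΔHx (adjusted p = 0.00111) and -1.71 in WT (adjusted p = 0.00643), and Wnt2b by -2.73 in ΔHx (adjusted p = 0.00469) and -2.30 in WT (adjusted p = 0.0146). The WT call of Wnt2b was lost without WT High replicate 1, WT High replicate 3 or WT Mid replicate 1 (adjusted p = 0.0509, 0.061 and 0.0682). In ΔHx, Wnt3a was also called lower (-0.86, adjusted p = 0.046) and Wnt11 higher (1.86, adjusted p = 0.0142). Neither was called in WT, where Wnt3a changed by -0.71 and Wnt11 averaged 132 ± 10.1 in High and 122 ± 74.4 in Mid cells. The difference of these changes between genotypes was not called for either ligand. The Wnt3a call was lost without ΔHx High replicate 3, the library with the fewest genes (-0.65, adjusted p = 0.188), and without ΔHx High replicate 2, ΔHx Mid replicate 1 or ΔHx Mid replicate 2 (adjusted p = 0.0765, 0.121 and 0.161). The Wnt11 call was lost without ΔHx Mid replicate 2 (1.20, adjusted p = 0.0994).

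**Figure D3:**
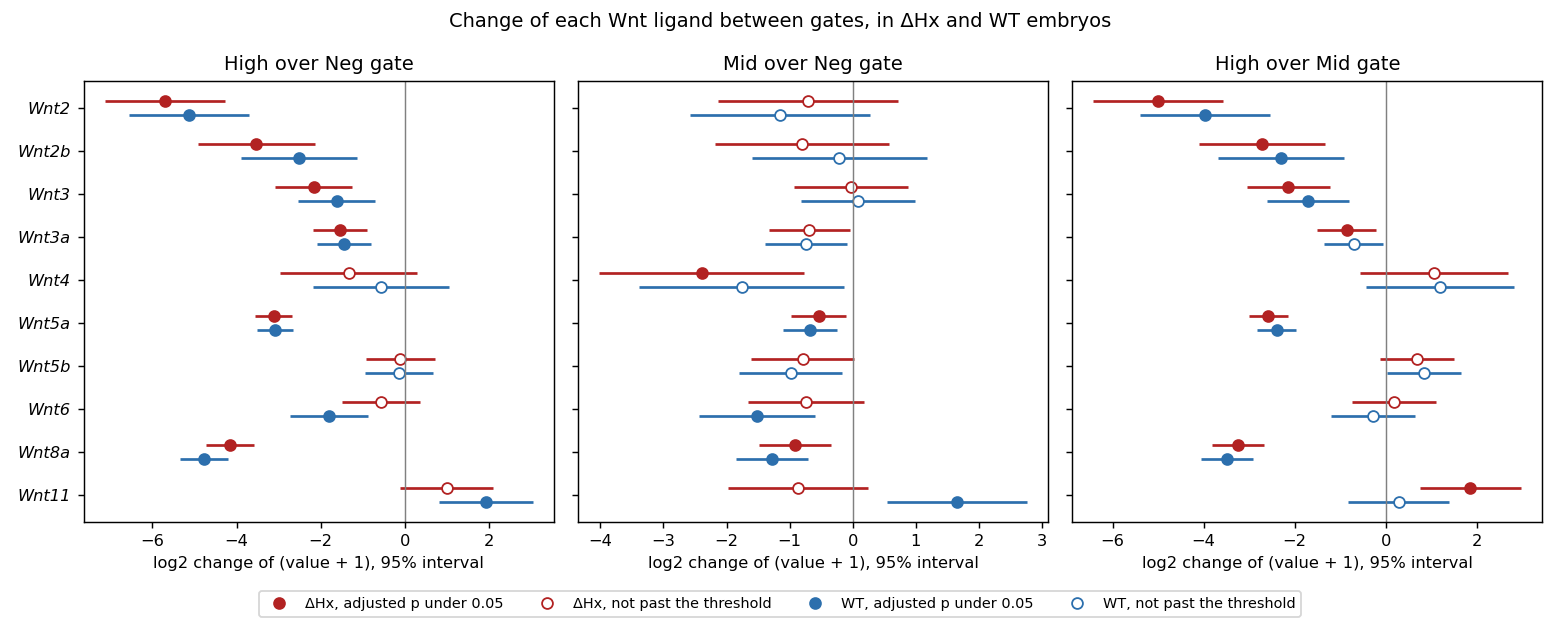
Change of each Wnt ligand between gates on the log2(value + 1) scale with its 95% interval, in ΔHx (red, upper) and WT (blue, lower) cells; filled points passed an adjusted p of 0.05 and open ones did not. In the High over Neg panel Wnt2, Wnt8a and Wnt5a lie to the left of 0 in both genotypes (-5.70, -4.15 and -3.12 in ΔHx; -5.13, -4.77 and -3.08 in WT), and Wnt11 lies to the right of 0.

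The second question is whether deleting the helix of FoxA2 changed the ligands within a gate. No ligand was called: 0 of 10 in High, 0 of 10 in Mid and 0 of 10 in Neg cells. Few genes were called at all, 0.122% of those tested in High (0.0612% higher and 0.0612% lower), 0.401% in Mid (0.0748% higher and 0.326% lower) and 0.245% in Neg (0.136% higher and 0.109% lower). At an unadjusted p under 0.05 there were 2 ligands in High, 1 in Mid and 0 in Neg, and edgeR on the recovered reads called 0 in each gate, against 0.109%, 0.503% and 0.156% of all tested genes. DESeq2 called 0 in High, 1 in Mid and 0 in Neg, against 0.571%, 1.22% and 0.353% of all tested genes. A ligand's ΔHx and WT libraries did not overlap for 2 of 10 in High, 1 of 10 in Mid and 0 of 10 in Neg, against 10.9%, 10.9% and 12.7% of all tested genes.

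The one called by DESeq2 was Wnt11 in Mid cells (log2 change -1.88, DESeq2 adjusted p = 0.0294), with 27.9, 9.75 and 61.6 in the ΔHx Mid libraries against 207, 68.8 and 89.8 in the WT Mid libraries. All 3 ΔHx libraries were lower than all 3 WT libraries, the nearest pair by a small margin. In limma the change was -2.03 (SE 0.53, 95% interval -3.14 to -0.92, unadjusted p = 0.00116, adjusted p = 0.133). The highest value belonged to WT Mid replicate 1, the library rich in parietal endoderm markers. Without it the change was -1.57 (adjusted p = 0.479). The parietal endoderm sum was 15746 to 21522 in ΔHx Mid and 38039 to 226747 in WT Mid libraries, and its part in the Wnt11 difference was not tested. Without ΔHx Mid replicate 3 the limma change passed (-2.64, adjusted p = 0.0384), and without ΔHx Mid replicate 2 it was -1.37 (adjusted p = 0.462). In High cells Wnt11 was also below WT in every ΔHx library, at 92.1, 117 and 83.3 against 138, 138 and 121, with a change of -0.45 (adjusted p = 0.872). In Neg cells its libraries overlapped (0.49, adjusted p = 1). The genotype change of Wnt11 in Mid minus that in Neg cells was -2.51 (unadjusted p = 0.00338, adjusted p = 0.66).

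In High cells, Wnt8a read 35.1, 38.0 and 51.1 in the ΔHx libraries against 28.8, 16.4 and 26.6 in the WT libraries. Every ΔHx library was higher than every WT library, at levels far below those of the other gates. The change was 0.79 (SE 0.27, 95% interval 0.22 to 1.36, unadjusted p = 0.00951) and did not pass after adjustment (adjusted p = 0.441). Without ΔHx High replicate 3 it was 0.63 (adjusted p = 0.942). The sum of 6 nascent and paraxial mesoderm markers was 2729 to 4357 in ΔHx High and 2041 to 2286 in WT High libraries, with none at 0. Of the 6, 1 was called, Dll1, a Notch ligand (1.10, adjusted p = 0.00129), while the changes of the others ran from -0.42 for Mesp2 to 1.31 for Msgn1 and did not pass, and the markers' part in the Wnt8a difference was not tested. In Mid cells Wnt8a differed by 0.54 (95% interval -0.03 to 1.11) and in Neg cells by 0.17 (-0.40 to 0.74), with overlapping libraries in both. Wnt6 in High cells read 85.1, 74.3 and 107 in ΔHx against 25.2, 89.2 and 37.2 in WT libraries. These overlapped through the second WT library, and the change was 0.99 (unadjusted p = 0.0378, adjusted p = 0.607).

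The other 7 ligands had overlapping ΔHx and WT libraries in every gate. For Wnt5a the 95% interval of the ΔHx over WT change was -0.37 to 0.49 in High, -0.18 to 0.68 in Mid and -0.32 to 0.54 in Neg cells. For Wnt3a it was -0.38 to 0.91, -0.22 to 1.07 and -0.28 to 1.01 in the same order, and for Wnt5b -0.90 to 0.73, -0.75 to 0.88 and -0.93 to 0.69. Those of Wnt3 were -1.07 to 0.74 in High, -0.64 to 1.18 in Mid and -0.53 to 1.29 in Neg cells. Wnt2 and Wnt2b, low in High cells, had intervals there of -1.97 to 0.88 and -1.95 to 0.81, and that of Wnt4 was -2.78 to 0.46. The difference of the genotype change between gates was called for 0 of 10 ligands in each of 3 pairs of gates, against 0% of tested genes for High minus Neg, 0.0068% for Mid minus Neg and 0.0136% for High minus Mid.

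**Figure D4:**
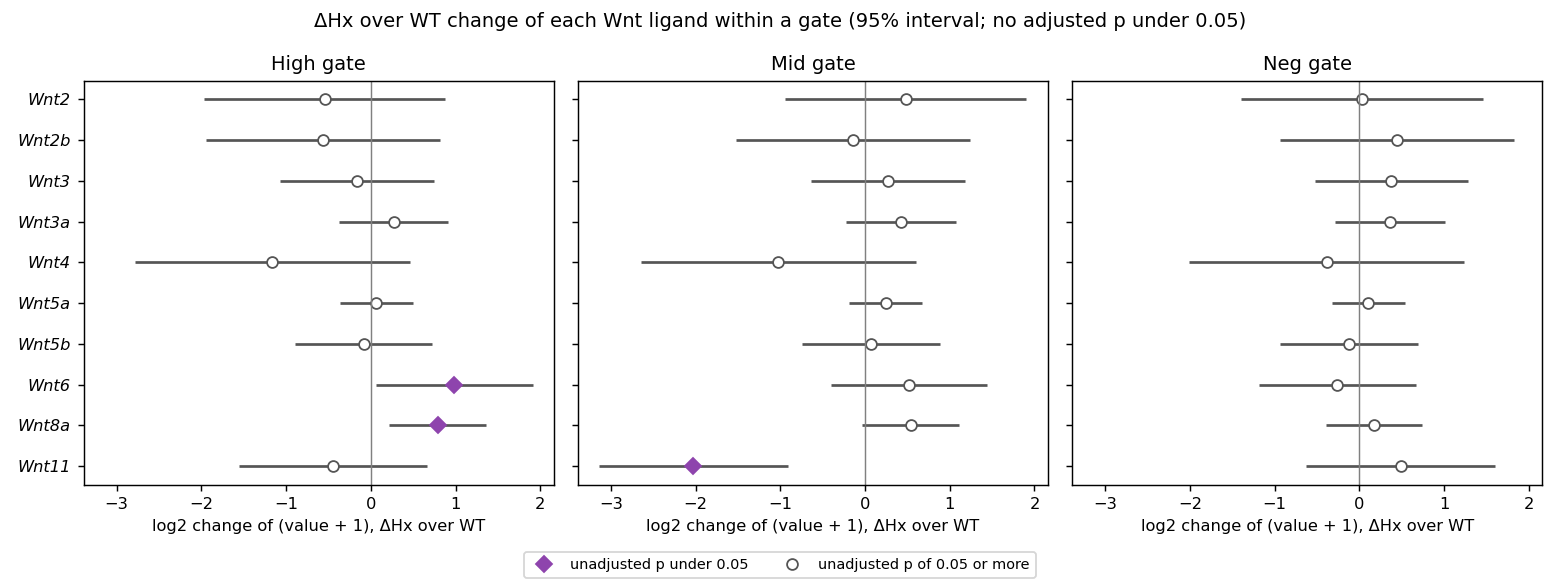
ΔHx over WT change of each Wnt ligand on the log2(value + 1) scale with its 95% interval, in High, Mid and Neg cells. Diamonds mark an unadjusted p under 0.05, which Wnt6 (0.99) and Wnt8a (0.79) reached in High and Wnt11 (-2.03) in Mid cells; no change passed the adjusted threshold.

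Of the 9 remaining Wnt ligand genes 5 passed the filter. Between High and Neg cells 1 was higher and 2 lower in ΔHx, and 2 were higher and 2 lower in WT. Wnt7b averaged 11.6 ± 11.4 in ΔHx High and 69.9 ± 17.3 in ΔHx Neg cells (-3.11, adjusted p = 0.0083), and 10.3 ± 8.03 in WT High and 110.4 ± 51.9 in WT Neg cells (-3.63, adjusted p = 0.00263). Its exons overlap those of an antisense gene, AU022754, by 6.61% of their bases. Wnt7a ran the other way, at 40.7 ± 19.8 in ΔHx High and 13.3 ± 11.3 in ΔHx Neg cells (2.04, adjusted p = 0.0191), and 37.9 ± 13.0 in WT High and 10.3 ± 3.15 in WT Neg cells (1.77, adjusted p = 0.039). Between genotypes 0 of the 5 were called in any gate.

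Gene lists of the Wnt pathway set the ligands in their context. The genes that release, receive and answer Wnt signals also differed between High and Neg cells, in both directions. Porcn, the enzyme that adds the lipid to Wnt proteins, was higher in High cells, with a change of 1.34 in ΔHx with an adjusted p of 4.34e-05 and 1.67 in WT with an adjusted p of 3.17e-06. Wls, their carrier to the cell surface, was lower in WT High cells (-0.61, adjusted p = 0.0115), and its change in ΔHx was -0.28 (95% interval -0.67 to 0.11). Of 10 Frizzled receptors 5 were higher and 3 lower in each genotype. Fzd8 averaged 82.0 ± 31.6 in ΔHx High and 6.29 ± 2.60 in ΔHx Neg cells, and 99.3 ± 43.0 in WT High and 3.08 ± 1.84 in WT Neg cells, and its change was 3.49 in ΔHx with an adjusted p of 0.000202 and 4.66 in WT with an adjusted p of 8.09e-06. Fzd6 rose as well, by 2.64 in ΔHx with an adjusted p of 8.44e-09 and 2.83 in WT with an adjusted p of 2.44e-09, while Fzd10 fell, with -2.97 in ΔHx with an adjusted p of 8.2e-07 and -2.86 in WT with an adjusted p of 1.14e-06. Of 6 coreceptors 0 were higher and 2 lower in each genotype. These were Ptk7, a polarity receptor (-0.81 in ΔHx with an adjusted p of 0.00348 and -0.93 in WT with an adjusted p of 0.00111), and Ror2, a receptor for Wnt5a (-0.55 in ΔHx with an adjusted p of 0.0026 and -0.45 in WT with an adjusted p of 0.00958).

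Of the R-spondin group, secreted enhancers of Wnt signals with their Lgr receptors and the ligases they block, 8 of 9 were tested, with 2 higher and 4 lower in ΔHx and 2 higher and 3 lower in WT. The receptor Lgr5 changed by 1.75 in ΔHx with an adjusted p of 6.58e-05 and 2.19 in WT with an adjusted p of 4.69e-06, the ligase Rnf43 by 1.98 in ΔHx with an adjusted p of 0.000333 and 1.84 in WT with an adjusted p of 0.000628 and the ligand Rspo3 by -1.45 in ΔHx with an adjusted p of 1.44e-06 and -1.66 in WT with an adjusted p of 2.32e-07. Of 13 genes of the β-catenin relay 3 were higher and 3 lower in ΔHx, and 2 were higher and 2 lower in WT. Among the TCF/LEF factors, Tcf7l2 was higher (2.25 in ΔHx with an adjusted p of 4.56e-08 and 2.33 in WT with an adjusted p of 2.19e-08) and Lef1 was lower (-1.80 in ΔHx with an adjusted p of 2.31e-07 and -2.12 in WT with an adjusted p of 2.21e-08). Of 10 feedback and target genes 3 were higher and 6 lower in ΔHx, and 2 were higher and 6 lower in WT. Their summed level was nevertheless higher in High cells, at 16393 to 16971 against 6786 to 10041 in ΔHx and 14383 to 20286 against 7254 to 10378 in WT libraries. Most of it in every High library was T, so this sum does not stand for the other targets. In recovered reads, which are not scaled for library size as the sums are, T had 13042 to 14599 in ΔHx High against 1486 to 3125 in ΔHx Neg libraries. It had 11083 to 13235 in WT High against 1557 to 2521 in WT Neg libraries. Sp5 also had more reads in every High than in every Neg library. Cdx4, a caudal homeobox gene, averaged 0.896 ± 0.906 in ΔHx High and 354 ± 108 in ΔHx Neg cells, and 3.91 ± 3.16 in WT High and 477 ± 34.6 in WT Neg cells, a change of -7.62 in ΔHx with an adjusted p of 6.1e-09 and -6.84 in WT with an adjusted p of 1.91e-08. Msgn1, a factor of paraxial mesoderm downstream of Wnt3a, changed by -3.02 in ΔHx with an adjusted p of 2.34e-05 and -4.24 in WT with an adjusted p of 3.32e-07. Of 11 secreted antagonists 9 were tested, with 3 higher and 2 lower in ΔHx and 4 higher and 2 lower in WT. Cer1, which blocks Nodal, BMP and, in frog, Wnt ligands, averaged 10089 ± 1964 in ΔHx High and 311 ± 95.5 in ΔHx Neg cells, and 11433 ± 1437 in WT High and 286 ± 81.8 in WT Neg cells, a change of 5.05 in ΔHx with an adjusted p of 8.81e-12 and 5.34 in WT with an adjusted p of 3.34e-12. Sfrp1 was higher (1.67 in ΔHx with an adjusted p of 1.32e-06 and 1.77 in WT with an adjusted p of 5.54e-07) and Sfrp2 lower (-2.01 in ΔHx with an adjusted p of 4.97e-06 and -2.51 in WT with an adjusted p of 2.79e-07). Between genotypes, limma called 0 genes of these lists in any gate.

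Across the 18 libraries the ligands fell into those that varied together and those that did not. These correlations are descriptions, on the log2(value + 1) scale, and the libraries share the gates and the replicates. Wnt5a and Wnt8a had the closest patterns among the 10 (Pearson's r = 0.97), followed by Wnt2 and Wnt5a (0.93) and Wnt2 and Wnt8a (0.90). Wnt11 ran against them, with -0.65 for Wnt8a and -0.63 for Wnt5a. Of all tested named genes, the pattern most like that of Wnt5a was that of Mycn (0.99), followed by Meis2 (0.98) and Fn1 (0.98). For Wnt8a it was also Mycn (0.98), then Wnt5a itself and Hoxb2 (0.97), and for Wnt2 it was Crabp1 (0.98). Wnt3 was most like Eif4g1 (0.93), Wnt3a like Lhpp (0.94) and Wnt2b like Pdlim2 (0.91). Closeness was lower for the rest: Wnt6 was most like Pdgfrb (0.90), Wnt5b like Eln (0.89) and Wnt11 like Igsf1 (0.83).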

How the data were processed

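RNA from 2500 to 5000 sorted cells was made into SMART-Seq2 libraries from the equivalent of 1000 cells and read as single 75-base reads, per the labels' protocols; this method does not mark strand. The submitters' processing notes name STAR 2.5.2a, HTSeq 0.6.1, DESeq, DESeq2 and the build mm10, and which gene annotation was counted is not stated in them. The deposited values are a normalised read signal: counts that the authors had divided by a size factor per library, as the deposited values themselves show. Whole reads were recovered for 440964 of 440964 values (within 1e-06 reads), so that 1 read was worth 0.825 to 1.37. Rn45s, the ribosomal RNA precursor, took 23.7% to 44.0% of the reads in genes. The 5 HTSeq counter lines were left out; reads with no feature were 7.17% to 12.1%, those in several genes 0.495% to 0.756% and those placed more than once 37.7% to 41.3% of all lines summed.

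Differences were tested with limma 3.58.1 in R 4.3.3 (trend in the variance, 2-sided) on log2(value + 1) of the deposited counts, with 1 mean for each of 6 groups, for the 14711 genes that reached 10 in 3 or more libraries. Benjamini-Hochberg adjustment ran over these genes in each of 12 contrasts. The fit was tested on simulated data with independent libraries, where changes were planted only in genes above a minimum mean. That test therefore does not cover low genes or sharing between libraries. Alternatives used edgeR 4.0.16 and DESeq2 1.42.0 on recovered reads, pseudocounts of 0.5 and 5, no filter or a filter at 50, quantile normalisation, equal totals without Rn45s, the compared groups alone, a replicate block, leaving out each library and, chosen after seeing the data, leaving out both libraries that stand apart. Exons and overlaps are from GENCODE M21, whose build is that of mm10. The ligands and gene lists were chosen with earlier results of these data known. Named from each pathway list were up to 3 called genes with the largest log2 change whose higher group averaged 20 or more, and for each ligand up to 3 genes most correlated with it. T and Sp5 were named in addition, as targets that ran the other way. No pair of replicates agreed within counting noise (chi-square over degrees of freedom 5.12 to 105). Counting intervals cover counting error only.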

Additional observations from a re-analysis of the deposited data

How the results depend on the processing

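The count of ligands called between High and Neg cells was 6 to 7 in ΔHx and 8 in WT under every alternative run, and no ligand change with an unadjusted p under 0.05 turned its direction. Leaving out 1 library at a time gave 0 to 2 calls for ΔHx Mid over Neg (3 in the full fit), 2 to 5 for WT Mid over Neg (4), 5 to 7 for ΔHx High over Mid (7), 4 to 6 for WT High over Mid (5) and 0 to 1 for ΔHx over WT in Mid cells (0). Mid over Neg in ΔHx gave 0 calls without ΔHx Neg replicate 1, 1 without ΔHx Neg replicate 3 and 5 with the compared groups alone, which added Wnt3a and Wnt5b. Mid over Neg in WT gave 2 calls without WT Mid replicate 1, without WT Neg replicate 3 and without both libraries that stand apart, each time losing Wnt6 and Wnt11. Between genotypes in Mid cells, DESeq2 and the fit without ΔHx Mid replicate 3 each gave 1 call, Wnt11; the cause was not tested. For Wnt5a, the ΔHx Mid over Neg call was lost in 10 of 16 alternatives (limma, edgeR or DESeq2 adjusted p = 0.022 to 0.252). With a replicate block, Wnt3a passed in WT Mid over Neg (adjusted p = 0.0455) and Wnt5a did not in ΔHx Mid over Neg (adjusted p = 0.0574), and the genotype counts stayed at 0. This block gave each replicate number 1 shift common to both genotypes, so it cannot account for sharing within a genotype only. The labels do not say what a replicate number marks. Same-numbered libraries correlated in their deviations at 0.02 to 0.29 within a genotype, where the own number was the highest in 18 of 18 pairs. This is a sign from the data that they share something. Between genotypes they correlated at -0.17 to 0.08, and the own number was the highest in 5 of 27 pairs. The main fit treated all libraries as independent, so its p-values between gates do not take this sharing into account. Scaling to equal totals without Rn45s moved the median of all genes in High over Neg by 0.11 in ΔHx and 0.13 in WT, and the ligand calls stood at 6 and 8. Depth limits Wnt4 and, in High cells, Wnt2 and Wnt2b, whose values rest on few reads.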
